A study of Homo sapiens with 14 samples.

Results

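The genes described here restrain mTORC1, the growth-promoting kinase complex built around mTOR. They are the sestrins SESN1, SESN2 and SESN3, DDIT4, DEPTOR, TSC1, TSC2, CASTOR1, AKT1S1 and PIK3IP1. They were picked by name, as every row of the count tables whose gene symbol is one of these 10. The knockdown table held 9 of them among 16405 genes, with no row for CASTOR1, and the RB98# table held all 10 among 12325 genes. All 9 and all 10 passed the filter on low counts. RNA-seq was read from Kasumi-1, a myeloblast-like human leukemia line with the 8;21 chromosome translocation, so every library shares that fusion. In the knockdown experiment 3 libraries came from cells given a scramble shRNA by lentivirus (shCtrl) and 3 from cells given an shRNA that targets RBPMS (shRBPMS), an RNA-binding protein gene. Infection lasted 48 h, and the cells were then kept in puromycin for 48 h. The second experiment has 2 libraries from DMSO-treated cells and 2 from cells treated with RB98#. RB98# is the code name of a compound, whose dose and time are not stated in the labels. Kasumi-1 is 1 cell line, no second shRNA is named, and the labels do not say that replicates are separate cultures, so p-values measure the spread between these libraries, which may be technical.

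mTORC1 drives protein synthesis and holds back autophagy when nutrients, energy and growth factors are plentiful. Amino acids reach it through the Rag GTPases on the lysosome, which the GATOR complexes control. Sestrins bind GATOR2, SESN2 as a leucine sensor, and CASTOR1 binds the same complex as an arginine sensor. Growth factors reach it through PI3K and AKT, which relieve the block that the TSC1-TSC2 complex puts on the GTPase RHEB. DDIT4, also called REDD1, strengthens that block under hypoxia and other stress, PIK3IP1 restrains PI3K at the membrane, and DEPTOR and AKT1S1 (PRAS40) bind the kinase complex itself. All values below are RNA levels, and neither mTORC1 activity nor any protein was measured.

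Library totals ran from 24.03 to 34.38 M counts (M is 1e6) in the knockdown experiment and from 13.9 to 15.3 M in the RB98# experiment. RBPMS itself stood at 20.4, 7.24 and 7.39 CPM in shCtrl and 2.53, 3.34 and 3.08 CPM in shRBPMS, so it was lower in every knockdown library. CPM means counts per 1e6 counts, scaled by TMM factors. Its log2 change was -1.96 with adjusted p = 0.0846 from edgeR, and -1.79 with adjusted p = 0.0106 with the replicate number as a block. Within the replicate 1 pair the log2 ratio was -3.01, and replicates 2 and 3 tested alone gave -1.19 (adjusted p = 3.81e-07). The labels put replicate 1 of each knockdown group in one set and replicates 2 and 3 in another. Replicate 1 of both groups stood apart, with 15.2% and 13.2% of counts from mitochondrially encoded genes against 6.20% to 6.95% in replicates 2 and 3. All 8 myeloblast markers examined had rows, with summed levels of 17500 to 23200 CPM in shCtrl, 19200 to 21600 in shRBPMS, 17400 to 17500 in DMSO and 19400 to 20500 in RB98#. Within this list all 8 were called with RB98#, 5 up and 3 down (CD33 -0.84, KIT -0.40 and CD34 -0.37 on the log2 scale). In the knockdown CD33, a myeloid surface antigen, was the 1 called in the fit of group alone, up by 1.71 (edgeR adjusted p = 0.0246). With the replicate block 1 of the 8 was called up and 2 down, beside 28.1% of all genes called. Those down were RUNX1T1 (-0.68, edgeR adjusted p = 0.00535) and RUNX1 (-0.29, adjusted p = 0.0496). Of 6 monocyte markers, 2 had rows, and CD14 had none in either table. These markers, LYZ and CSF1R, summed to 3.88 to 5.68 CPM in shCtrl and 5.90 to 7.34 in shRBPMS. They summed to 20.3 CPM in both DMSO and 22.1 to 23.8 in both RB98# libraries. That sum hides opposite signs, as CSF1R was called down with RB98# (log2 change -1.24, edgeR adjusted p = 0.0426). LYZ was not called, and with the replicate block neither was. In the blocked knockdown fit CSF1R was called up by 1.47 (adjusted p = 0.0142). The part of these markers in the results below was not tested. Lymphoid markers summed to 12.6 to 12.9 CPM in shCtrl and 4.97 to 6.29 CPM in shRBPMS, small beside the myeloblast genes, and none of 5 erythroid markers had a row.

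With RB98#, RNA of 5 of the 10 brakes rose and that of 1 fell. DDIT4 and SESN2 stood at more than 4 times their DMSO levels, SESN3, TSC1 and SESN1 rose less, and DEPTOR fell. TSC2, AKT1S1, PIK3IP1 and CASTOR1 did not pass the test. Over all genes, 37.8% of 12324 were called (edgeR's quasi-likelihood test, adjusted p under 0.05 after Benjamini-Hochberg adjustment), 20.5% up and 17.3% down. Counts of called genes are therefore common in this comparison, and the sizes of the changes say more than their number. The median log2 change was 0.37 over the 10 brakes and 6.5e-05 over all genes tested. The brakes were chosen with earlier results of these data known, so their common direction is no independent support.

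DDIT4 (ENSG00000168209, GRCh38 chromosome 10, 72273920 to 72276036, plus strand, protein-coding) is a stress-induced activator of the TSC complex. Its level was 45.9 and 50.7 CPM in DMSO and 218 and 205 CPM in RB98#, from 672 and 808 counts against 3194 and 2740. Both treated libraries lay far above both controls, and the replicates of each group lay close together. The change was 4.37-fold, or 2.13 on the log2 scale (SE 0.07, edgeR adjusted p = 3.38e-17). The authors' deposited table gives the same gene a log2 fold change of 2.13 with an adjusted p of 1.02e-115. In GENCODE 29, DDIT4-AS1 on the opposite strand covers 847 of the 2058 exon bases of DDIT4. DDIT4-AS1 has no row in the tables, and the sources used here do not say whether counting used the strand, so reads of both genes cannot be told apart over that stretch.

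SESN2 (ENSG00000130766, chromosome 1, 28259527 to 28282491, plus strand, protein-coding) is the sestrin known as a leucine sensor. It measured 13.5 and 13.2 CPM in DMSO and 60.3 and 51.9 CPM in RB98#. Again the groups were far apart. Its log2 change was 2.07 (SE 0.11, edgeR adjusted p = 1.45e-13), a 4.21-fold rise. No other annotated gene overlaps it. In every alternative run for RB98#, both SESN2 and DDIT4 were called up.

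The 250 bases before the RefSeq start (assembly GRCh38.p14) are shown for DDIT4 and SESN2 because these members changed most with RB98#. They lie at chr10:72273674-72273923 and chr1:28259268-28259517, both on the plus strand, and read 5′ to 3′ up to the base before the start. Capitals mark ACGTG, the core that hypoxia-inducible factors bind, and CCAAT, the core of the box that NF-Y binds, each searched on both strands (CCAAT then reads ATTGG).
DDIT4: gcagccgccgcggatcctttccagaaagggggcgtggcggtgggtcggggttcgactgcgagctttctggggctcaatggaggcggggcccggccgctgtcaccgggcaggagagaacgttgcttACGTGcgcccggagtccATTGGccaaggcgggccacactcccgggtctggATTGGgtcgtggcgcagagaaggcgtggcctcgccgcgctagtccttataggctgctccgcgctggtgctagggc
SESN2: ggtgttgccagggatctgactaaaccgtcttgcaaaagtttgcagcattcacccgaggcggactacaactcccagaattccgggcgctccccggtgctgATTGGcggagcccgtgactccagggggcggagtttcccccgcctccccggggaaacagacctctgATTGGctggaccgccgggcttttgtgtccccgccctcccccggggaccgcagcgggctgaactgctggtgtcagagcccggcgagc

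Both windows hold 2 CCAAT boxes on the opposite strand, at 108 and 75 bases before the start in DDIT4 and at 151 and 86 in SESN2. Of 35116 windows of the same length in the RefSeq table, 32.0% hold at least 1 such box. This motif was chosen after the sequences were seen. The DDIT4 window holds 1 ACGTG, at 125 bases before the start, a core found in 18.5% of windows, and the SESN2 window holds none. Neither window holds TGATGNAA, the composite element that ATF4 binds (3.14% of windows), TGACGTCA, the cyclic AMP response element (1.65%), GTAAACA, the FOXO core (2.98%), or CACGTG, the E-box (6.34%). CACGTG contains ACGTG, so every E-box also counts as that core. A match is a description of letters, and elements outside these windows were not searched.

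The other sestrins also rose. SESN3 (ENSG00000149212, chromosome 11, 95165513 to 95232541, minus strand), a sestrin known as a FOXO target, measured 30.1 and 28.5 CPM in DMSO and 53.9 and 50.7 CPM in RB98#. The groups did not overlap, and the log2 change was 0.84 (SE 0.09, edgeR adjusted p = 1.31e-07). SESN1 (ENSG00000080546, chromosome 6, 108986437 to 109094819, minus strand) measured 15.02 and 15.8 CPM in DMSO and 22.3 and 17.2 CPM in RB98#. Most of its difference came from RB98# replicate 1, while replicate 2 lay little above the controls. Its log2 change of 0.36 (SE 0.13) passed narrowly, with edgeR adjusted p = 0.037. Without RB98# replicate 1 the log2 change was 0.15 with an edgeR adjusted p = 0.444. The call was also lost without DMSO replicate 1 (adjusted p = 0.193) and without DMSO replicate 2 (adjusted p = 0.106). In the authors' deposited table SESN1 has the same log2 fold change of 0.36 with an adjusted p of 0.243.

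The TSC complex is the point where DDIT4 and AKT act. TSC1 (ENSG00000165699, chromosome 9, 132891348 to 132946874, minus strand), the subunit that stabilises TSC2, measured 77.3 and 70.1 CPM in DMSO and 108 and 113 CPM in RB98#. Both treated libraries were above both controls, with a log2 change of 0.59 (SE 0.07, edgeR adjusted p = 9.01e-07). TSC2 (ENSG00000103197, chromosome 16, 2047465 to 2089487, plus strand), the subunit that acts on RHEB, measured 93.3 and 92.0 CPM in DMSO and 97.6 and 111 CPM in RB98#. The groups lay apart by little, and the log2 change of 0.17 (SE 0.07) did not pass, with adjusted p = 0.0678. Without RB98# replicate 1 it was 0.25 and passed, with adjusted p = 0.00205 from edgeR. Both TSC2 neighbours that share exon bases with it from the other strand were called, PKD1 up by 0.52 on the log2 scale (adjusted p = 1.2e-05) and NTHL1 down by 0.46 (log2 change -0.46, adjusted p = 0.0225). They cover 778 and 402 of its 19626 exon bases.

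Of the proteins that bind the kinase, DEPTOR (ENSG00000155792, chromosome 8, 119873717 to 120050913, plus strand) was the 1 brake that fell with RB98#. It measured 95.3 and 99.9 CPM in DMSO and 75.1 and 83.5 CPM in RB98#. The groups did not overlap, and the log2 change was -0.30 (SE 0.07, edgeR adjusted p = 0.00252). Without DMSO replicate 2, which left a lone control, the change was a similar -0.27 but was not called. The authors' deposited table gives DEPTOR a log2 fold change of -0.30 with an adjusted p of 0.0174. AKT1S1 (ENSG00000204673, chromosome 19, 49869033 to 49878459, minus strand), an mTORC1 inhibitor that AKT phosphorylates, measured 34.5 and 35.5 CPM in DMSO and 38.9 and 40.4 CPM in RB98#. Although the groups did not overlap, its log2 change of 0.18 (SE 0.09) did not pass, with adjusted p = 0.134.

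The last 2 brakes were low. PIK3IP1 (ENSG00000100100, chromosome 22, 31281593 to 31292534, minus strand), the PI3K inhibitor, measured 5.19 and 6.34 CPM in DMSO and 7.71 and 7.24 CPM in RB98#. That log2 change of 0.37 (SE 0.19) did not pass, with adjusted p = 0.137. CASTOR1 (ENSG00000239282, chromosome 22, 30285117 to 30289627, minus strand) was at the edge of detection, with 16 and 14 counts in DMSO and 10 and 13 in RB98#, or 1.09, 0.88, 0.68 and 0.97 CPM. Its groups overlapped, and the log2 change was -0.25 (SE 0.48, adjusted p = 0.717). AC004997.1 on the same strand shares 1262 of the 2746 exon bases of CASTOR1, so its few counts are uncertain. Counting groups rather than tests, 9 of the 10 brakes did not overlap between DMSO and RB98#, 8 of them higher and DEPTOR lower, against 68.3% of all genes (34.3% higher, 34.0% lower). Since these are bulk libraries, fewer cells of a kind and less RNA per cell cannot be told apart in any of these values.

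**Figure D1:**
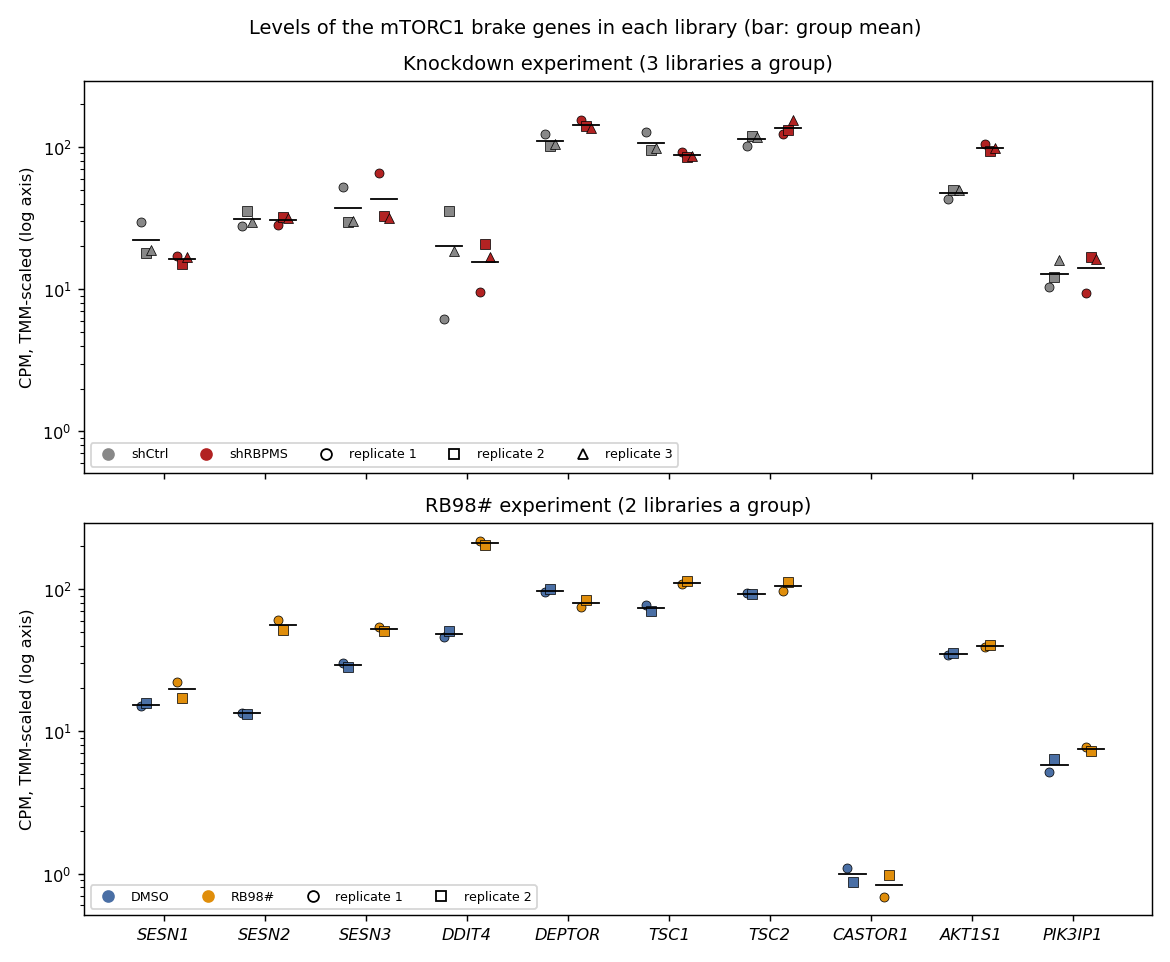
Level of each brake gene in every library, in TMM-scaled CPM on a log axis, with shCtrl and shRBPMS above and DMSO and RB98# below; marker shapes give the replicate and black bars the group mean. DDIT4 and SESN2 stand apart between DMSO (45.9 to 50.7 and 13.2 to 13.5 CPM) and RB98# (205 to 218 and 51.9 to 60.3 CPM), AKT1S1 stands apart between shCtrl and shRBPMS, and DDIT4 in shCtrl spreads from 6.15 to 35.4 CPM.

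Knockdown of RBPMS changed 1 of 9 brakes in the fit of group alone, AKT1S1, which rose to 2.07 times its control level. With the replicate number as a block, DEPTOR and TSC2 also rose and TSC1 fell, so 4 of 9 were called. No sestrin and not DDIT4 passed in either fit. Over all genes, 1.97% of 16215 were called in the fit of group alone and 28.1% in the blocked fit, 13.3% up and 14.8% down. Read against that background, 4 of 9 in the blocked fit is no result about the brakes as a group, while AKT1S1 is among the 0.629% of genes called up in the fit of group alone, where 1.34% were called down. The median log2 change over the 9 brakes was 0.14, and over all genes 0.02.

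AKT1S1 measured 43.4, 49.7 and 50.1 CPM in shCtrl and 104.8, 93.6 and 98.1 CPM in shRBPMS. All knockdown libraries lay well above all controls. Its log2 change was 1.05 (SE 0.12, edgeR adjusted p = 0.0233), and 1.05 in the blocked fit (adjusted p = 5.74e-04). The authors' deposited table puts AKT1S1 at 1.03 on the log2 scale, with an adjusted p of 3.42e-07. Within the replicate 1 pair the log2 ratio was 1.27 and within replicates 2 and 3 it was 0.94. The size held when any 1 library was left out, from 1.01 to 1.09. The call did not: adjusted p was 0.108 and 0.112 without shCtrl replicates 2 and 3, and 0.0563, 0.153 and 0.136 without shRBPMS replicates 1, 2 and 3. Leaving out shCtrl replicate 1 kept it.

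At the AKT1S1 locus, TBC1D17 on the opposite strand shares 392 of its 5737 exon bases. TBC1D17, a Rab GTPase-activating protein gene, averaged 9.61 ± 0.20 CPM in shCtrl and 15.2 ± 1.79 CPM in shRBPMS (SD, n = 3 each). Its groups did not overlap, and its log2 change was 0.66 with adjusted p = 0.086 in the fit of group alone and 0.65 with adjusted p = 0.00604 in the blocked fit. How much of the AKT1S1 signal comes from shared bases was not tested.

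DEPTOR measured 123, 101.6 and 105.1 CPM in shCtrl and 153.7, 139.9 and 137 CPM in shRBPMS. All knockdown libraries were above all controls. The log2 change was 0.38 (SE 0.13) with adjusted p = 0.189 in the fit of group alone, and 0.39 (SE 0.06) with adjusted p = 0.00489 in the blocked fit. TSC2 measured 102, 119.8 and 116.9 CPM in shCtrl and 122.7, 130.8 and 154.3 CPM in shRBPMS. Its groups also did not overlap, though the highest control and the lowest knockdown library nearly met. The change was 0.27 with adjusted p = 0.402, and 0.26 with adjusted p = 0.0309 in the blocked fit. The ratio was 0.27 on the log2 scale in both label sets.

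TSC1, the partner of TSC2, went the other way. It measured 127.5, 96 and 98.8 CPM in shCtrl and 92.3, 85.6 and 86.6 CPM in shRBPMS. Every knockdown library was below every control, with shCtrl replicate 1 well above the other controls. Its log2 change was -0.28 (adjusted p = 0.400), and -0.27 (adjusted p = 0.0377) in the blocked fit. The log2 ratio was -0.47 within the replicate 1 pair, and replicates 2 and 3 tested alone gave -0.18 (adjusted p = 0.00166). That last fit called 3324 genes up and 3506 down of 16189.

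Among the sestrins, SESN1 measured 29.5, 17.9 and 18.9 CPM in shCtrl and 17.2, 15.1 and 16.9 CPM in shRBPMS. The groups did not overlap, and again shCtrl replicate 1 was the high library. The log2 change of -0.43 (SE 0.22) had adjusted p = 0.404, and the blocked value of -0.39 had adjusted p = 0.0656. A covariate for the label set in place of the block let SESN1 pass, at the same -0.39 with adjusted p = 0.0349, and 5 of 9 brakes then passed beside 35.8% of all genes (17.5% up, 18.4% down). Replicates 2 and 3 tested alone gave SESN1 -0.20 with adjusted p = 0.0715, against a log2 ratio of -0.78 within the replicate 1 pair. SESN2 measured 27.9, 35.3 and 29.7 CPM in shCtrl and 28.4, 32.0 and 31.5 CPM in shRBPMS. All knockdown libraries lay within the range of the controls, and the log2 change was -0.01 (SE 0.14, adjusted p = 0.983). SESN3 measured 52.2, 29.6 and 30.3 CPM in shCtrl and 65.3, 32.8 and 31.4 CPM in shRBPMS. Its level followed the label set, high in replicate 1 of both groups, and the change of 0.21 (SE 0.36) had adjusted p = 0.863.

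DDIT4 had the largest SE of the 9 brakes in the knockdown experiment. It measured 6.15, 35.4 and 18.6 CPM in shCtrl and 9.50, 20.7 and 16.7 CPM in shRBPMS. The 3 knockdown libraries lay within the spread of the controls. Its log2 change was -0.36 with an SE of 0.59 (adjusted p = 0.856). Within the replicate 1 pair the log2 ratio was 0.63, and within replicates 2 and 3 it was -0.53, so the sign differed between the label sets. Replicates 2 and 3 tested alone gave -0.51 with adjusted p = 0.0159 from edgeR. Their libraries overlapped between the groups, at 35.4 and 18.6 CPM against 20.7 and 16.7 CPM. That fit called 3324 genes up and 3506 down of 16189, and the spread it measures may be technical. PIK3IP1 measured 10.3, 12.2 and 16.0 CPM in shCtrl and 9.38, 16.8 and 16.2 CPM in shRBPMS. These ranges overlapped, and the log2 change was 0.14 (SE 0.28, adjusted p = 0.888). In all, 5 of the 9 brakes did not overlap between shCtrl and shRBPMS (DEPTOR, TSC2 and AKT1S1 higher, SESN1 and TSC1 lower), against 25.9% of all genes (12.3% higher, 13.6% lower).

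**Figure D2:**
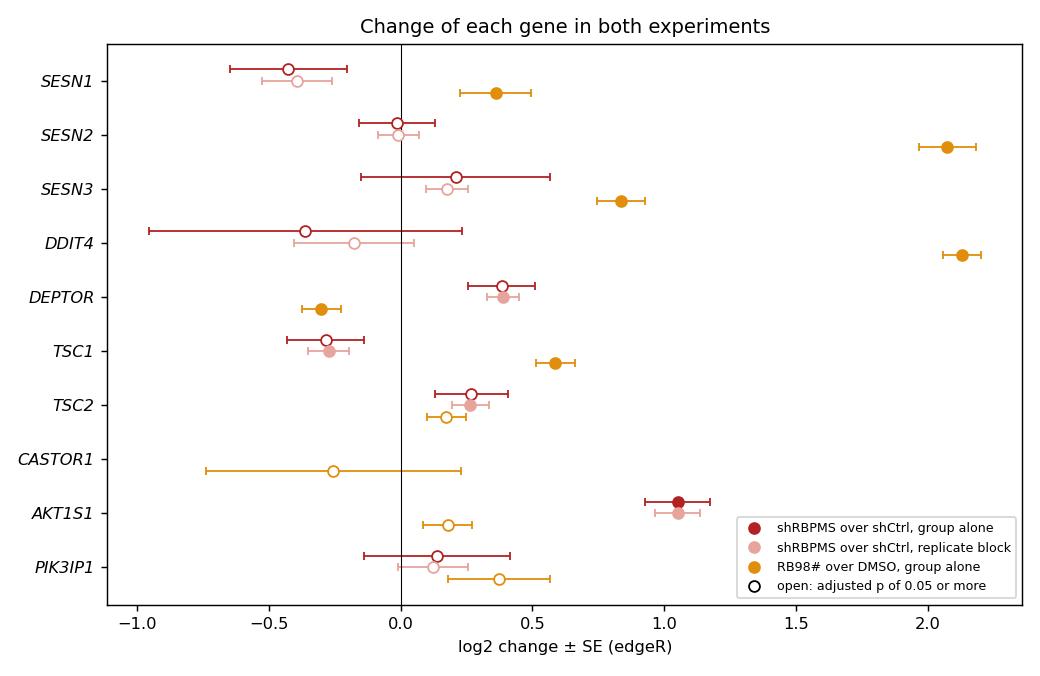
Log2 change of each brake gene ± SE from edgeR for shRBPMS over shCtrl in the fit of group alone, the same with the replicate block, and RB98# over DMSO; filled points have an adjusted p under 0.05. SESN2 and DDIT4 sit at 2.07 and 2.13 for RB98# and at -0.01 and -0.36 for the knockdown, and AKT1S1 sits at 0.18 and 1.05.

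The difference between both effects was tested directly, as the RB98# effect less the knockdown effect in 1 fit of all 10 libraries over the 12126 genes of both tables. SESN2 and TSC1 differed upward, by 2.07 (SE 0.20, edgeR adjusted p = 0.00248) and 0.86 (SE 0.20, adjusted p = 0.0341) on the log2 scale. DEPTOR and AKT1S1 differed downward, by -0.70 (SE 0.17, adjusted p = 0.038) and -0.89 (SE 0.15, adjusted p = 0.0123). So 4 of 9 brakes were called, against 8.15% of all genes (4.79% upward, 3.36% downward). Of these, TSC1 rose with RB98# and was lower in the knockdown, and DEPTOR fell with RB98# and was higher in the knockdown. Neither knockdown change passed in the fit of group alone (edgeR adjusted p = 0.400 for TSC1 and 0.189 for DEPTOR). For DDIT4 the difference was 2.47 with an SE of 0.82 and adjusted p = 0.103. Without shCtrl replicate 1, its lowest control, that difference was 2.89 and passed, with adjusted p = 0.0106.

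SESN1 (0.77, adjusted p = 0.191), SESN3 (0.62, adjusted p = 0.506), TSC2 (-0.11, adjusted p = 0.786) and PIK3IP1 (0.22, adjusted p = 0.814) did not pass. With the replicate block, 7 of 9 passed, against 37.1% of all genes (18.9% upward, 18.2% downward). Those added were DDIT4 (2.32, adjusted p = 4.53e-04), SESN1 (0.73, adjusted p = 0.0334) and SESN3 (0.64, adjusted p = 0.00361). SESN2 passed whichever 1 library was left out. The calls of DEPTOR, TSC1 and AKT1S1 were each lost without any 1 of the 4 DMSO and RB98# libraries, with adjusted p between 0.0571 and 0.169, so that 1 brake remained called there. Leaving out shRBPMS replicate 2 or 3 also lost DEPTOR and TSC1, leaving 2. DEPTOR was lost as well without shCtrl replicate 2 or 3, with adjusted p = 0.0762 and 0.0829.

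Levels of different genes were compared per length, as CPM per kilobase of annotated exon. In shCtrl, DEPTOR stood highest at 42.0 ± 4.46 CPM per kb (SD, n = 3), above every other brake. Behind it came DDIT4 (9.75 ± 7.14), SESN2 (8.96 ± 1.12) and AKT1S1 (8.32 ± 0.66), where SESN2 overlapped AKT1S1. DDIT4 ran from 2.99 to 17.2 CPM per kb and overlapped every brake ranked below it, so its place is uncertain. Below AKT1S1, and not overlapping it, came TSC1 (6.10), TSC2 (5.75), SESN1 (4.31), SESN3 (3.54) and PIK3IP1 (3.37), each overlapping the next. In shRBPMS, AKT1S1 at 17.2 ± 0.98 CPM per kb stood second and apart from both neighbours, DEPTOR at 54.7 ± 3.40 and SESN2 at 8.87 ± 0.56. SESN2 overlapped DDIT4 (7.60), which ran from 4.62 to 10.0 and overlapped TSC2 (6.93), TSC1 (5.01) and SESN3. TSC2 stood above TSC1 without overlap. SESN3 (4.08), PIK3IP1 (3.71) and SESN1 (3.20) followed, each gene from TSC1 down overlapping the next.

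In DMSO the order was DEPTOR (37.2 ± 1.23 CPM per kb, SD, n = 2), DDIT4 (23.5 ± 1.65), AKT1S1 (6.10 ± 0.13), TSC2, TSC1, SESN2 (3.86 ± 0.04), SESN1, SESN3, PIK3IP1 and CASTOR1 (0.36 ± 0.06). With RB98#, DDIT4 led at 102.7 ± 4.62 CPM per kb, ahead of DEPTOR at 30.2 ± 2.26 and SESN2 at 16.3 ± 1.73. SESN2 thus moved from the sixth place to the third, above AKT1S1 at 6.91 ± 0.18. No neighbours overlapped in either order except TSC2 (5.33) and SESN3 (4.95) with RB98#. Exons used by few transcripts lower these values, so they rank genes only roughly.

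The upstream arms of the pathway changed unevenly with RB98#. Among 10 factors known to induce sestrins or DDIT4, 6 rose and 1 fell, with a median log2 change of 0.35. Beside them, 37.8% of all genes were called, 20.5% up and 17.3% down. FOXO3, a forkhead factor, rose from 134 ± 3.68 to 250.5 ± 4.95 CPM (SD, n = 2), by 0.90 on the log2 scale (edgeR adjusted p = 2.35e-11). ATF4, the factor of the integrated stress response, rose from 251 ± 9.08 to 454 ± 13.5 CPM, by 0.85 (adjusted p = 1.89e-11). Its partner DDIT3 rose by 0.84, from 8.88 ± 0.39 to 15.9 ± 0.20 CPM (adjusted p = 6.02e-05). CEBPB (0.82), NFE2L2 (0.43) and HIF1A (0.26) also rose, and FOXO1 fell by 0.48 (adjusted p = 0.00814).

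Of 13 ATF4 targets tested, 8 rose with RB98# and none fell, with a median of 0.59. Over all genes, 20.5% were called up and 17.3% down. The largest changes among these targets were ATF3, a stress-response factor (3.08, from 7.68 ± 2.45 to 65.3 ± 5.95 CPM), CHAC1, which degrades glutathione (3.06, from 1.56 ± 0.18 to 13.1 ± 2.75 CPM), and SLC7A11, the cystine transporter (1.80, from 17.4 ± 0.21 to 60.4 ± 8.37 CPM). TRIB3, an inhibitor of AKT, rose by 0.91 (adjusted p = 3.10e-09). This list, like the inducers and the other pathway lists, was chosen with earlier results of these data known, so its direction is no independent support. Of 12 p53 targets tested, 3 rose and 2 fell with RB98#, with a median of -0.0039. Among these were CDKN1A (1.99) and BBC3 (1.78) up and AEN (-0.68) down.

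The lists closer to the kinase also held called genes with RB98#, read beside the 37.8% called among all genes, and no difference between lists was tested. Of 8 mTORC1 substrates, 4 rose and none fell. LPIN1, a phosphatidate phosphatase that mTORC1 keeps out of the nucleus, rose from 43.3 ± 0.10 to 103 ± 1.95 CPM, by 1.25 (adjusted p = 3.53e-12), and the autophagy genes ULK1 and ATG13 rose by 0.47 and 0.33. Of 16 PI3K and AKT genes, 8 rose and 2 fell, among them INPP4B (0.67) and PIK3CA (0.52) up and PIK3R2 down (-0.53). Of 9 genes for mTOR complex subunits or for their assembly (TELO2, TTI1 and TTI2), 2 rose (1 with the replicate block). RICTOR, the scaffold of mTORC2, was up by 0.82. Another 3 fell, among them PRR5 by 0.82 and TELO2 by 0.33. Of 12 GATOR and KICSTOR genes, 1 rose (WDR59, 0.26) and 1 fell (MIOS, -0.28, adjusted p = 0.0408, and 0.0509 with the replicate block). Of 15 Rag, Ragulator and RHEB genes, 3 rose and 2 fell, with FNIP1 at 0.64 and RRAGD at -0.51. Of 9 AMPK and LKB1 genes, CAB39 (0.49) and PRKAB2 (0.29) rose.

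The knockdown calls among these genes in the fit of group alone stand beside 1.97% of all genes, 0.629% up and 1.34% down. RRAGD, a Rag GTPase, rose from 17.3 ± 1.55 to 37.9 ± 6.94 CPM (SD, n = 3), by 1.13 on the log2 scale (edgeR adjusted p = 0.0345). RHEB, the GTPase on which TSC2 acts, fell from 91.6 ± 2.67 to 59.9 ± 1.33 CPM, by 0.61 (adjusted p = 0.0451). PRKAG1, an AMPK regulatory subunit, rose by 0.89 (adjusted p = 0.0314). These were the calls among the 95 genes tested in 8 pathway lists, which leave out the p53 targets. Of 12 p53 targets, 1 was called, RRM2B, up by 1.04 (edgeR adjusted p = 0.0309). None of the 10 inducers, 13 ATF4 targets, 9 substrates, 10 mTOR subunit and assembly genes, 12 GATOR and KICSTOR genes or 17 PI3K and AKT genes passed.

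In the blocked fit more of the lists were called, beside 28.1% of all genes. Substrates gave 3 up of 9, led by EIF4EBP2 (0.78), which restrains translation initiation. GATOR and KICSTOR genes gave 3 up of 12, among them NPRL2 (0.33) and ITFG2 (0.29), which belong to the arm that lowers mTORC1 signalling. The inducers gave 2 up and 2 down of 10, with FOXO1 at -1.32 (adjusted p = 0.0137) and HIF1A at -0.72 (adjusted p = 0.00518). ATF4 targets gave 1 up and 3 down of 13, with TRIB3 at 1.09, CHAC1 at -0.76 and STC2 at -0.64. The p53 targets gave 2 up and 2 down of 12, with CDKN1A at -1.22, RRM2B at 1.03 and FDXR at -0.90.

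**Figure D3:**
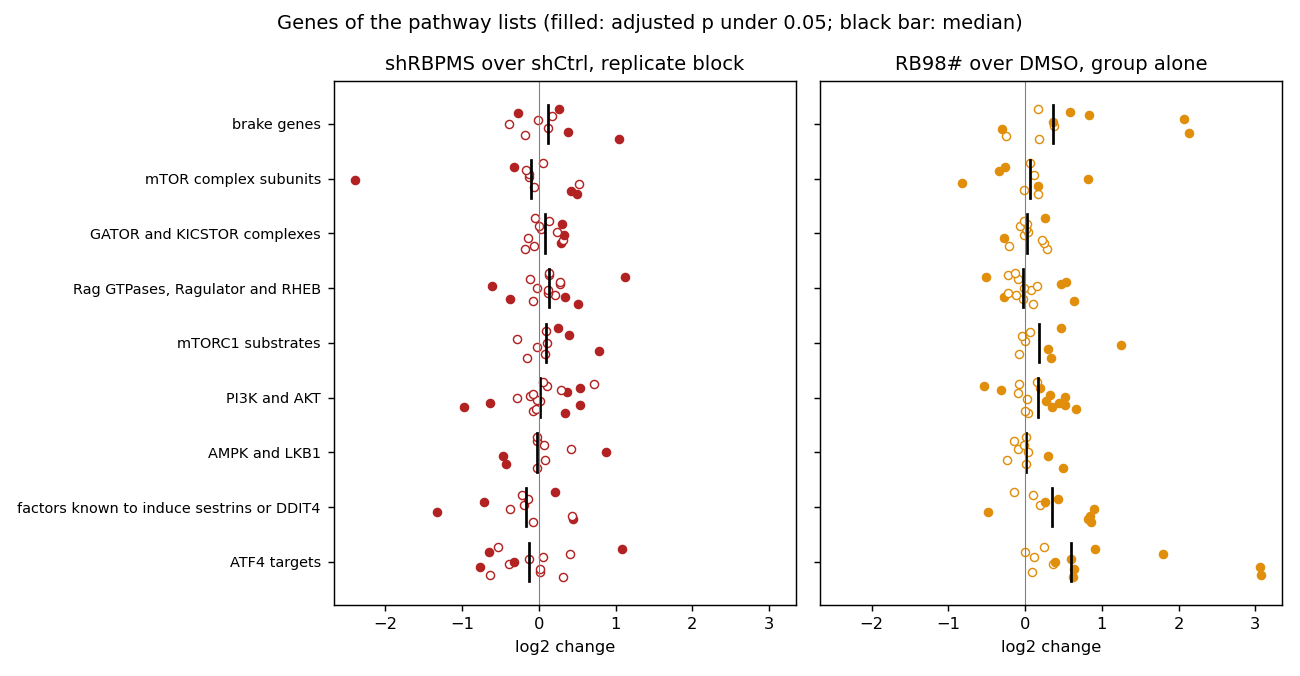
Log2 change of the genes of each pathway list, with the brake genes in the first row, for shRBPMS over shCtrl with the replicate block (left) and RB98# over DMSO (right); points are genes, filled where the adjusted p is under 0.05, and the black bar is the list's median. Among the lists drawn, the ATF4 targets have the highest median with RB98#, 0.59, followed by the brakes at 0.37 and the inducers at 0.35. The p53 targets are not drawn, and the row of mTOR complex subunits also holds the assembly genes TELO2, TTI1 and TTI2.

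The genes whose levels ran most like those of AKT1S1 and DDIT4, the brakes with the largest changes in each experiment, were sought over all 10 libraries. Each library's log2 CPM was set against the mean of its own controls, and 10092 genes were compared by Pearson's r. The libraries share their controls and label sets, so r is a description. For AKT1S1 these were SPI1, which encodes the myeloid factor PU.1 (r = 0.993), ASAH1, an acid ceramidase gene (0.989), and GNAI2, a G protein subunit gene (0.989). In shRBPMS, SPI1 stood 1.56, 1.51 and 1.45 above its controls on the log2 scale, and AKT1S1 stood 1.13, 0.97 and 1.04 above.

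For DDIT4 they were PFKFB3, a glycolytic regulator (r = 0.982), ATF4 (0.973) and SAP30, a subunit of a deacetylase complex (0.969). DDIT4 stood 2.17 and 2.07 above DMSO in the RB98# libraries, and ATF4 stood 0.88 and 0.82 above. In the controls of the knockdown, DDIT4 stood -1.32, 1.11 and 0.21 from their mean and ATF4 -0.36, 0.21 and 0.15. Both were thus low in shCtrl replicate 1, the library with the highest mitochondrial share, and both were low in shRBPMS replicate 1 as well.

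**Figure D4:**
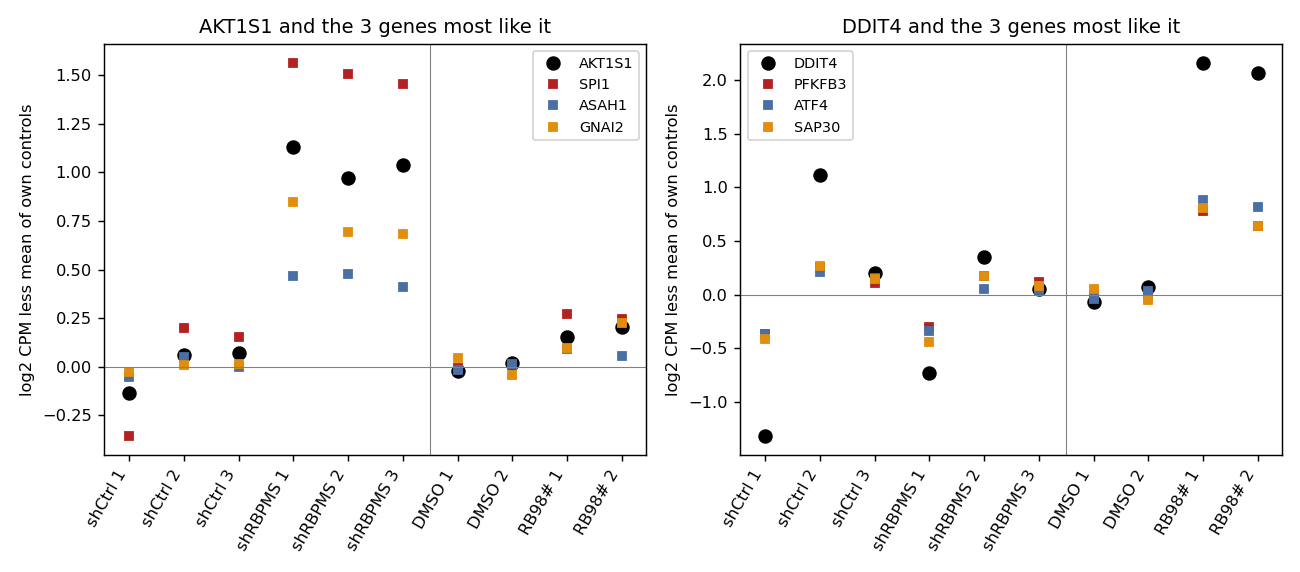
Log2 CPM of AKT1S1 (left) and DDIT4 (right) and of the 3 genes most like each, in every library, less the mean of that experiment's own controls. AKT1S1 and SPI1 are high in the 3 shRBPMS libraries, at 0.97 to 1.13 and 1.45 to 1.56, and DDIT4 and ATF4 are high in both RB98# libraries and low in replicate 1 of both knockdown groups.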

How the data were processed

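Gene counts of 10 Kasumi-1 RNA-seq libraries were used, and 4 RIP and m6A samples of the 14 listed were not analysed here. Tools listed in the submitters' processing notes, without roles, are DESeq2 1.32.0, featureCounts 2.0.1, fastp 0.22.0, StringTie and HISAT2 2.2.1, with the build hg38/GRCh38. Per the file headers and whole-number values, the authors deposited raw counts per gene, in a knockdown table (summed count at least 27) and an RB98# table (at least 50, with 112 repeated lines dropped here). The deposited knockdown table also holds a signal column per library, adjusted by the authors in a way not given in the sources used here, which served as an alternative only. The deposited log2 fold changes and adjusted p-values are the authors' own and are quoted as such. Another 4 columns of library values stayed out of all steps.

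Tests were two-sided quasi-likelihood F tests of edgeR 4.0.16 (R 4.3.3) with TMM factors, the filterByExpr filter (count 10, total 15), group as the only term, and Benjamini-Hochberg adjustment over all genes at 0.05. The SE is the log2 change over the square root of F. The code was tested on simulated counts. Same-numbered knockdown libraries deviated together (r = 0.852, 0.773 and 0.801 over 10826 genes), so values with this number as a block are printed beside the main ones. Replicate 2 against replicate 3 gave 0.776 and 0.768, so the pairing follows the label set. In the RB98# experiment r was -0.0598. Replicates 2 and 3 of a knockdown group differed least (chi-square per degree of freedom 2.98 and 2.99), still more than sampling noise.

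CPM per kilobase used GENCODE 29 exon unions, and promoters came from RefSeq (GRCh38.p14), where 8 of the 10 genes were matched and used. Entries on chromosome 8, where DEPTOR lies, were skipped, and AKT1S1 had no entry. The brake genes and pathway lists were chosen with earlier results of these data known. Named list genes are up to 3 per list with the largest change past 0.05, added to which are CEBPB, TRIB3, NFE2L2, HIF1A, FOXO1 and overlapping neighbours, chosen after their values were seen. Likeness was sought for the brake most changed in each experiment, over genes whose mean log2 CPM reached 2 (offset 0.5). Alternatives were other scalings, no filter, DESeq2, limma-voom, the block, the label set, the signal columns (limma on log2 of the value plus 1) and leaving out each library. Some list genes are not reported here.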

Additional observations from a re-analysis of the deposited data

How the results depend on the processing

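In the knockdown, 1 brake was called. With the replicate block 4 were, with the label set as a covariate 5 and with label set 2 alone 5; over all genes these fits called 4549, 5810 and 3324 up with 3506 down. Leaving out single libraries gave 0 to 1. With RB98#, 6 were called, 5 by DESeq2 1.42.0 and 5 with library totals as the scaling (SESN1 lost, adjusted p = 0.16 and 0.134), and leaving out single libraries gave 4 to 6. For the difference 4 were called, 7 with the replicate block and 5 by DESeq2 (DDIT4 added, adjusted p = 0.0182), and 1 to 5 without single libraries. With RB98# the block changed no call among the brakes; over all genes it gave 2379 up and 2051 down. Signs turned only for values that had not passed the test. SESN2 in the knockdown was 0.0138 with library totals and 0.00683 with replicates 2 and 3 summed, and ran from -0.0934 to 0.0805 without single libraries. DDIT4 was 7.05e-04 with replicates 2 and 3 summed and ran from -0.794 to 0.322. SESN3 ran from -0.217 to 0.509 and PIK3IP1 from -0.00542 to 0.360, and the PIK3IP1 difference ran from -0.0116 to 0.371. The causes were not tested.

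Over all genes, RB98# gave 2530 up and 2129 down. With library totals it gave 1690 up and 3276 down, as the median gene moved to -0.10, and all 6 called brakes kept their sign. The knockdown gave 102 up and 218 down, 520 and 826 by DESeq2, 810 and 1060 from the signal columns and 1268 and 1413 with replicates 2 and 3 summed. Without single libraries edgeR called from 0 genes to 91 up and 231 down. The 0 came without shCtrl replicate 3 and without shRBPMS replicate 2 or 3, where 2010, 1866 and 2002 genes had an unadjusted p under 0.05. Where a group of 2 lost a library, the lone sample was assumed to vary like the others. With 2 libraries a group in the RB98# experiment and 10 to 16 counts, a small change of CASTOR1 (SE 0.48) was not detectable. Among genes with more counts, WDR59 was called there at a log2 change of 0.26 and TSC2 at 0.17 was not.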

Other observations

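Controls of both experiments differed widely in a few genes named above or in their lists. ASNS, the asparagine synthetase gene among the ATF4 targets, averaged 3.01 ± 0.53 CPM in shCtrl (SD, n = 3) and 111 ± 5.22 CPM in DMSO (SD, n = 2). It rose with RB98# to 171 ± 4.01 CPM, by 0.62 on the log2 scale (edgeR adjusted p = 5.30e-08), and averaged 3.80 ± 0.85 CPM in shRBPMS. PIK3R2, a PI3K regulatory subunit gene, averaged 0.40 ± 0.22 CPM in shCtrl and 44.8 ± 5.72 CPM in DMSO. Among the brakes the control averages lay closer, 30.9 and 13.3 CPM for SESN2, 20.1 and 48.3 CPM for DDIT4, and 12.8 and 5.76 CPM for PIK3IP1. The tables were scaled separately and no library is shared, so experiment, control treatment and gene counting cannot be told apart and no test was made. ASNS and PIK3R2 were chosen after their values were seen.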
